A study of Mus musculus with 11 samples.

Results

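The cells described here carry the label Claudius and outer sulcus cells of the cochlear duct on postnatal day 1 (P1). They were picked from the P1 libraries by their level of Bmp4. A cell was taken when its deposited value, the natural logarithm of 1 plus its UMIs (unique molecular identifiers, one for each captured transcript) per 10000, was at least 1.5 for Bmp4, 0 for the Hensen's cell gene Pmch, below 1.5 for Myo6 and 2.0 for Ccer2, both of hair cells (HCs), and below 3.5 for Oc90, a gene of the cochlear roof. The rule took 136 of 14043 P1 cells, 82, 12, 9 and 33 in replicates 1 to 4, and they are called Bmp4+ cells below. The study isolated cells from the cochlear sensory epithelium of wild-type CD1 mice at embryonic days 14 and 16 (E14 and E16), P1 and P7, and 2, 3, 4 and 2 of its droplet libraries (10x Chromium) were analysed here. Each library pooled the cochleae of several pups of either sex, with the roof and lateral wall dissected away. No animal had been treated, and the groups compared here are classes of cells within a library, so the library is the unit of replication. The other 12410 P1 cells below the 2 HC limits are the other non-hair cells, and 1497 cells above them are HC-type cells.

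Claudius cells and outer sulcus cells line the floor of the duct on its lateral side, between Hensen's cells of the organ of Corti and the spiral ligament of the lateral wall. They carry no hair bundle and take part in keeping the ion and fluid balance of the endolymph. BMP4, a secreted protein of the transforming growth factor β family, is made along this lateral edge from early in development and binds receptors that act through Smad proteins, while secreted antagonists such as follistatin (Fst) bind activins and some BMPs and limit their signalling.

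Because the cells were chosen on Bmp4, Pmch, Myo6, Ccer2 and Oc90, the values of these genes are a description and were not tested. Bmp4 (chromosome 14, 46383520 to 46390669 in the GENCODE annotation of GRCm38) averaged 1261, 942, 875 and 1118 CPM (a gene's UMIs per 1000000 UMIs of a cell, averaged over the cells) in the Bmp4+ cells of replicates 1 to 4. It averaged 4.70, 1.37, 2.73 and 5.27 CPM in the other non-hair cells. In single Bmp4+ cells the value ran from 1.51 to 3.35 with a median of 2.50, and Bmp4 was counted 1 to 36 times (median 7). The call rested on 1 UMI in 5 cells, on 2 in 7 cells and on at least 3 in 124. The 16 cells up to 0.25 above the limit held 1.51 to 1.75 and the 24 cells up to 0.25 below it 1.26 to 1.49. A UMI of Fst was found in 11 of the 16 cells inside and 11 of the 24 outside, of Fbln2 in 9 and 9, and of Gata2 in 13 and 20. A further 35 non-hair cells within the Bmp4 limit were left out for Pmch, 2 for Oc90, and 5 as HC-type cells.

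The label was checked with 3 other genes given with it, which were chosen with results of these data known and carry no p here. Fbln2 (chromosome 6, 91212455 to 91272540), which encodes the matrix protein fibulin-2, averaged 1017, 1474, 933 and 2047 CPM in the Bmp4+ cells of replicates 1 to 4 and 9.003, 12.2, 15.7 and 21.3 CPM in the other non-hair cells. Gata2 (chromosome 6, 88193891 to 88207032), a zinc finger transcription factor, averaged 529.9, 424, 537 and 816 CPM against 96.4, 52.8, 64.6 and 165 CPM. Fst (chromosome 13, 114452290 to 114458951) averaged 428, 1859, 1298 and 899 CPM against 46.8, 66.1, 66.9 and 71.8 CPM. The lowest Bmp4+ library lay above the highest library of other non-hair cells for each of the 3 genes. A UMI was found in 121 (Fbln2, 89.0%), 123 (Gata2, 90.4%) and 96 (Fst, 70.6%) of the 136 cells. After every cell was drawn down to 1500 UMIs, the shares were 72.8% (95% exact interval 64.5 to 80.1), 58.8% (50.1 to 67.2) and 46.3% (37.7 to 55.1), against 0.601%, 5.34% and 0.868% of HC-type cells, which should lack these genes. The intervals cover counting error only. Median depth was 6292 UMIs in Bmp4+ cells, 5697 in HC-type cells and 4826.5 in the other non-hair cells.

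**Figure D1:**
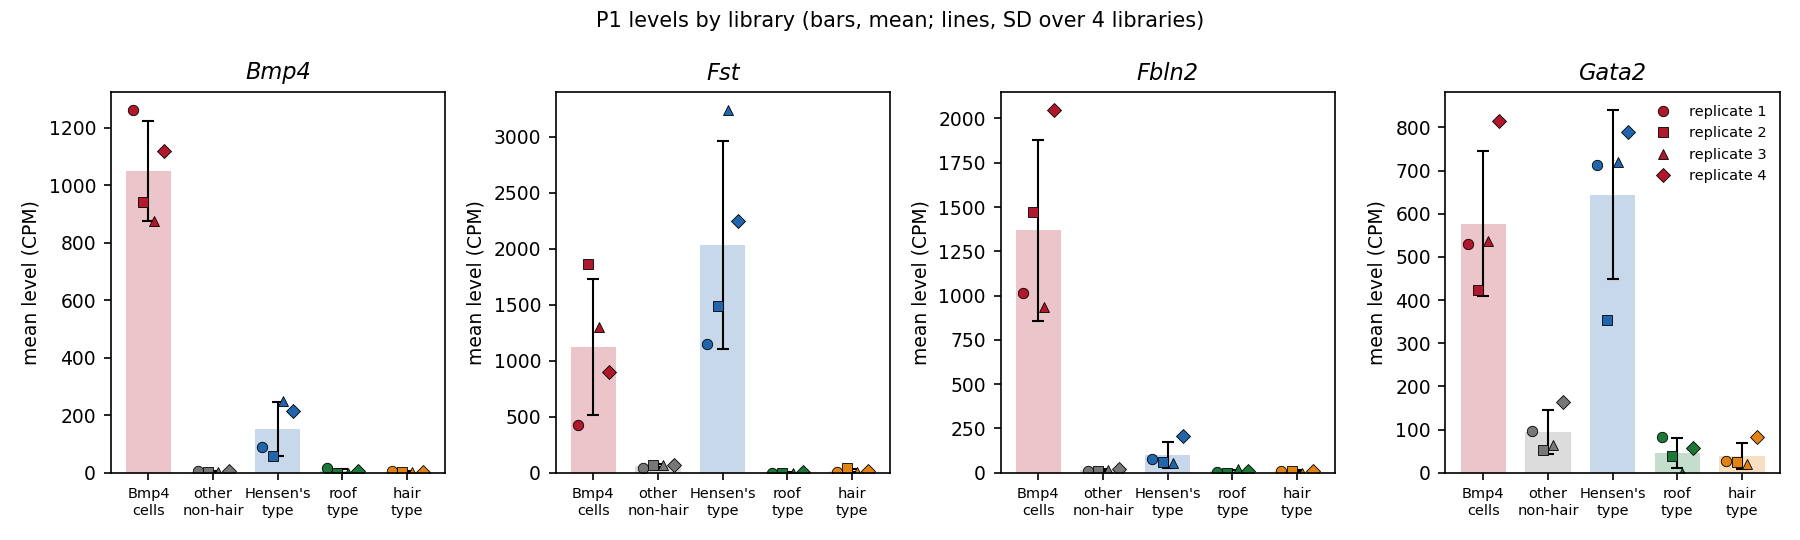
Level of Bmp4, Fst, Fbln2 and Gata2 (mean CPM, linear axis) in 5 classes of P1 cells, with 1 point for each of 4 libraries, bars at the mean and lines of 1 SD. Bmp4 and Fbln2 stand highest in the Bmp4+ cells, whereas Fst and Gata2 are shared with Hensen's-type cells.

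Only part of the label sets these cells apart from their neighbours. The 142 Hensen's-type cells, chosen on Pmch, held 2030.1 ± 927 CPM of Fst and 644 ± 196 CPM of Gata2 (SD, n = 4 libraries), against 1121 ± 607 and 577 ± 168 CPM in Bmp4+ cells. Fbln2 stood at 99.1 ± 73.3 CPM in Hensen's-type and 1368 ± 511 CPM in Bmp4+ cells, with no overlap between libraries. Bmp4 itself had a UMI in 152 of the 12410 other non-hair cells (1.22%), and 63 of these 152 were Hensen's-type cells, 44.4% of that class. With cells drawn down to 1500 UMIs, 27 of the 142 Hensen's-type and 111 of the 136 Bmp4+ cells had one. The rule does not part Claudius cells from outer sulcus cells. The study located Fst in Hensen's cells and in a lateral group of outer sulcus cells next to the Bmp4 group. Outer sulcus cells under the Bmp4 limit count among the other non-hair cells here. Fst had a UMI in 672 of the 12410 other non-hair cells, 118 of them Hensen's-type cells. Libraries were unequal, since replicate 1 gave 82 of the 136 cells and replicates 2 and 3 gave 12 and 9, and the profiles of the 4 libraries rested on 715462, 97840, 74628 and 187915 UMIs. One Bmp4+ cell of replicate 1 shares its barcode with a cell of replicate 4. A doublet caller marked 5 Bmp4+ cells, all in replicate 1.

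Markers of mesenchyme (8 genes) summed to 0 to 21.4 CPM per library, with Col1a1, Pou3f4, Twist1, Postn and Coch at 0 in all 4. Markers of stria vascularis and lateral wall (8 genes) summed to 49.2, 92.7, 9.23 and 35.4 CPM in replicates 1 to 4. In the other non-hair cells they summed to 39.9, 33.8, 34.5 and 33.4 CPM. The Bmp4+ sum was thus higher in replicates 1, 2 and 4 and lower in replicate 3, although Kcnq1, Esrrb and Atp13a5 were at 0. Sums were 30.6 to 102 CPM for 8 HC genes outside the rule (9970.0 to 17138 in HC-type cells), 58.5 to 109 for 6 glial genes (47.9 to 87.1 in the other non-hair cells), 8.27 to 41.2 for 6 neuronal genes, 16.1 to 57.7 for 8 blood and vessel genes and 0 to 66.3 for 8 genes of cycling cells (15.0 to 35.0 in the other non-hair cells). For neighbouring epithelium the sums were 318 to 919.5 CPM for 7 Hensen's cell genes outside the rule (3066 to 6163 in Hensen's-type and 312 to 777 in the other non-hair cells), 716 to 1819 CPM for 9 genes of Kölliker's organ (6751 to 9178 in the other non-hair cells), 698 to 1315 for 8 interdental genes (1279.7 to 2779.9), 791 to 1434 for 12 genes of Deiters' and pillar cells (1473 to 2557) and 62.9 to 210.3 for 5 genes of the roof (1339 to 1796 in the other non-hair cells). The highest sums of stria, glial, cycling and Hensen's cell markers lay above those of the other non-hair cells. Their part in the results below was not tested.

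The promoters of 3 of the label genes are shown because GATA factors are among the genes higher in these cells than in the other non-hair cells. Each runs 5′ to 3′ from 250 bases before to 50 bases after the start of the RefSeq gene (GRCm38.p6), with letters that match a GATA motif (the letters GATA with A or T before them and A or G after them, on either strand) in capitals. Fst had no entry, and another Gata2 window (chr6:88198414-88198713), which held no match, is not shown.
Bmp4 (chr14:46390620-46390919, minus strand): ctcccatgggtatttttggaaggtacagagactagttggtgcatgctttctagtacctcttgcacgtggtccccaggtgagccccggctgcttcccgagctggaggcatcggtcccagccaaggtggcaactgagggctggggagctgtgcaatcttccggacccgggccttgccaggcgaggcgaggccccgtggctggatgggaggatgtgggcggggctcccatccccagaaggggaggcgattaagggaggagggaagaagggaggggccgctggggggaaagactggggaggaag
Fbln2 (chr6:91212514-91212813, plus strand): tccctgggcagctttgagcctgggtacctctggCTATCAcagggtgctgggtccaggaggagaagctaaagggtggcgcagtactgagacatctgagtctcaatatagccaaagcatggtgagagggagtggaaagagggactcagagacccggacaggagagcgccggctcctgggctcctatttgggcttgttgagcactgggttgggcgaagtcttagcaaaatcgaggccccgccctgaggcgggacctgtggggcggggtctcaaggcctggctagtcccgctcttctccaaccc
Gata2 (chr6:88193641-88193940, plus strand): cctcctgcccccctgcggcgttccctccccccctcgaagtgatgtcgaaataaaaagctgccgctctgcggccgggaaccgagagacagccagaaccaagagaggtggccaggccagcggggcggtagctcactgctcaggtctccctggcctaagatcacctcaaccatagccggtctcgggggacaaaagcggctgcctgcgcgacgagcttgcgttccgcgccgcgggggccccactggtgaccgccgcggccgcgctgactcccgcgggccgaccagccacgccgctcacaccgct
Fbln2 held 1 match and the other windows none. Of the genes with an entry, 30.2% (8166 of 27025) hold a match in such a window, and 2 of the 11 with an entry among the 12 leading genes named next do. A match is a description of the letters in the window.

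Against the other P1 non-hair cells, the Bmp4+ cells held more Serpina3a, Apoe, Igfbp4, Npnt and Lmo3 and less Calb1, Tectb, Crabp1, Rgcc and Tecta. The comparison asks what a library's Bmp4+ cells express that its remaining epithelium does not. Of 8623 genes tested with limma (log2 of CPM + 10, library as a block, Benjamini-Hochberg adjusted p of at most 0.05), 396 were called higher (4.59%) and 492 lower (5.71%). The levels of the 4 libraries did not overlap for 488 genes higher (5.66%) and 488 lower (5.66%). Without the library block the counts were 181 and 264. With each profile centred on its median gene they were 292 and 575, a change that shifted the median fold change of all genes from 0.01 to -0.10 on the log2 scale, and without replicate 4 they were 249 and 357. Over all P1 cells, HC-type cells included, 1134 had more than 3000 genes, 40 of them Bmp4+ cells. Without such cells, 96 of the 136 Bmp4+ and 11707 of the 12410 other non-hair cells were left. The counts were then 160 and 311. With means of the deposited log values the balance turned, to 665 and 357.

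Serpina3a, a member of the serine protease inhibitor family, had the greatest log2 fold change of the ranked genes, which leave out the label genes. It averaged 754, 656, 325 and 394 CPM in the Bmp4+ cells of replicates 1 to 4 and at most 3.11 CPM in the other non-hair cells (log2 fold change 5.49, SE 0.26, adjusted p = 5.46e-10). It had a UMI in 101 of 136 cells. Apoe, the lipid carrier apolipoprotein E, averaged 9729, 4184, 2917 and 3688 CPM against 185, 131, 79.2 and 108 CPM (log2 fold change 5.14, SE 0.13, adjusted p = 1.51e-13). Replicate 1 was highest, and the lowest Bmp4+ library was still above every other non-hair library. Apoa4, a lipoprotein component better known from the intestine, averaged 210.2, 177, 73.6 and 149 CPM against 1.37 ± 0.513 CPM (log2 fold change 3.75, SE 0.32, adjusted p = 4.91e-07). Igfbp4, a secreted binder of insulin-like growth factors, averaged 655, 385, 477 and 648 CPM against 9.47 ± 1.99 CPM (log2 fold change 4.79, SE 0.22, adjusted p = 3.95e-10). Both were higher in 4 of 4 libraries with no overlap.

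Npnt, the basement membrane ligand nephronectin, averaged 877, 724, 569 and 1218 CPM against 23.3, 14.7, 16.0 and 32.0 CPM (log2 fold change 4.74, SE 0.19, adjusted p = 5.68e-11). Lmo3, a LIM-domain transcriptional cofactor, averaged 438, 188, 224 and 477 CPM against 17.2, 7.75, 7.48 and 7.502 CPM (log2 fold change 4.02, SE 0.26, adjusted p = 3.03e-08). The 4 libraries of Bmp4+ cells were above those of the other cells for both genes. The remaining 6 of the 12 leading genes were Rasgef1b, a Ras-family exchange factor (3.82), Tnnt2, the cardiac troponin T gene (3.74), Enpp1, which makes pyrophosphate (3.64), Cthrc1, a secreted collagen triple helix protein (3.61), the imprinted gene Mest (3.58) and Cgnl1, a junction protein (3.53), with log2 fold changes in brackets and adjusted p of at most 5.28e-07. Tnnt2 stood at 138, 221, 182 and 99.2 CPM in Bmp4+ cells and 2.26 ± 0.547 CPM in the others, with a UMI in 59 of 136 cells. Mest reached 742, 1096, 1211 and 346 CPM against 57.0, 72.5, 69.0 and 30.9 CPM.

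**Figure D2:**
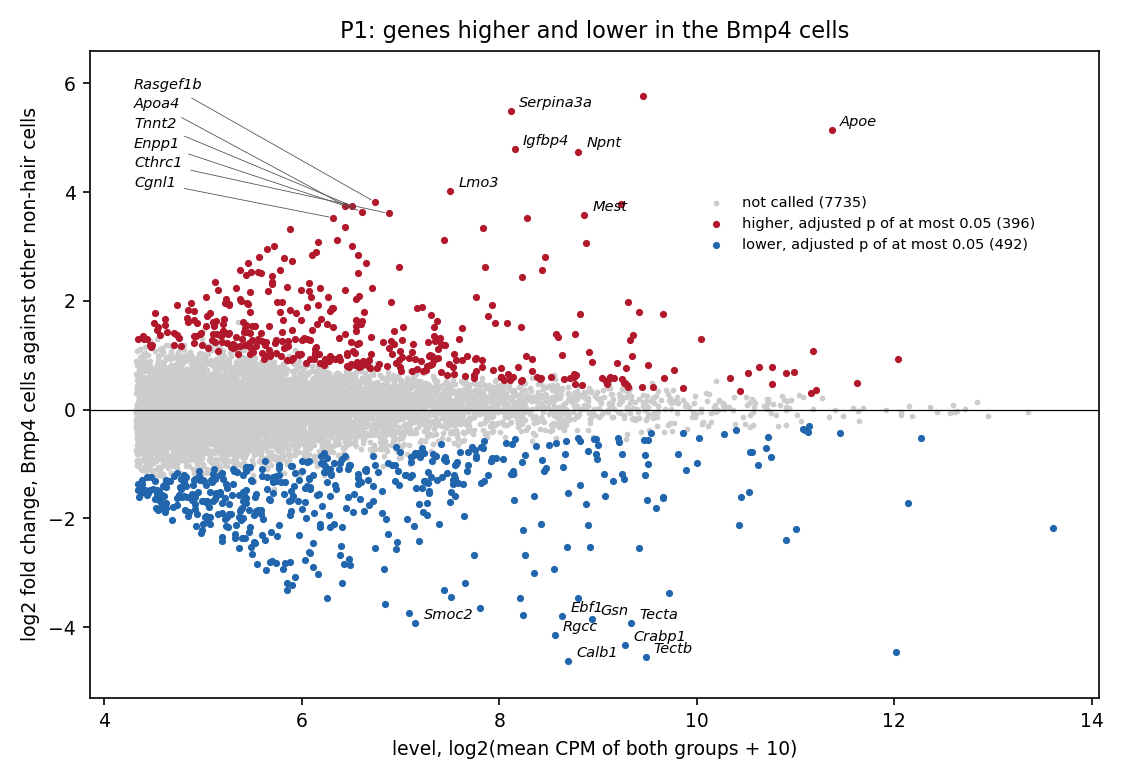
Each point is 1 of 8623 genes, with the mean level of both groups, log2(CPM + 10), across and the log2 fold change of the Bmp4+ cells against the other P1 non-hair cells up. The 396 genes called higher are red, the 492 called lower are blue, and the 20 named genes are labelled.

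Genes of Kölliker's organ, the thick medial epithelium of the immature duct, were lower in the Bmp4+ cells. Calb1, which encodes the calcium-binding protein calbindin, averaged 103, 0, 0 and 56.1 CPM in the Bmp4+ cells of replicates 1 to 4 and 1149.9, 796, 775 and 364 CPM in the other non-hair cells (log2 fold change -4.62, SE 0.47, adjusted p = 3.27e-06). Tectb and Tecta, which encode the tectorins of the tectorial membrane, fell with log2 fold changes of -4.55 and -3.93 (adjusted p = 5.85e-07 and 8.66e-07). Tectb stood at 230.4, 26.1, 0 and 66.7 CPM against 2518, 915, 1152 and 725 CPM. Crabp1, which binds retinoic acid (-4.33), Rgcc, a regulator of the cell cycle (-4.14), Smoc2, a matricellular protein (-3.92), Gsn, the actin-severing gelsolin (-3.86), and the transcription factor Ebf1 (-3.79) were lower in 4 of 4 libraries as well. The Kölliker's organ list had 9 of 9 genes lower (median log2 fold change -3.46), with Calb1, Tecta, Crabp1 and Rgcc among the 9. The list was chosen with earlier results of these data known, so the count is not independent evidence of the direction. Of the cochlear markers nearer to the HCs, 9 of 12 Deiters' and pillar cell genes were lower and 2 higher, Rflnb (1.75) and Emid1 (0.95). The Deiters' and pillar cell list was also chosen with earlier results of these data known. Beside both lists, 4.59% of all genes tested were called higher and 5.71% lower.

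The BMP pathway was read from its secreted proteins to its targets, beside a median log2 fold change of 0.01 over all genes. For this and the following lists against the other non-hair cells, 4.59% of all genes tested were called higher and 5.71% lower. List genes not counted as tested, here and below, lay under the filter of 10 CPM, belong to the rule or have no deposited values at that age. Among ligands, 1 of 3 genes tested was called higher and 0 lower (median log2 fold change 0.99). The ligand called was Bmp7, at 295, 163, 277 and 165 CPM against 37.3, 53.4, 66.7 and 51.3 CPM in replicates 1 to 4 (log2 fold change 1.89, SE 0.24, adjusted p = 3.52e-05). Of 7 antagonists tested, Fst among them, 3 were higher and 2 lower (median log2 fold change 0.61). Fst is 1 of the 3, but as a label gene it was chosen with results of these data known. Bmper, which binds BMPs outside the cell, averaged 132, 218, 55.1 and 73.9 CPM against 3.63 ± 0.283 CPM (log2 fold change 3.08, SE 0.34, adjusted p = 9.48e-06). Nog (noggin) was at 19.4, 59.8, 17.2 and 20.9 CPM against 4.68 ± 2.24 CPM (log2 fold change 1.32, SE 0.37, adjusted p = 0.0276). Nog missed the threshold without replicate 1, 2 or 4. Fstl1, a follistatin-like glycoprotein, ran the other way, at 631, 259.5, 390.2 and 867 CPM against 2060.1, 1717, 2030.0 and 2957 CPM (log2 fold change -2.12, SE 0.14, adjusted p = 3.75e-08), and Nbl1 was lower too (-1.52).

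Of the receptors and Smads, 3 of 10 genes tested were called higher and 0 lower (median log2 fold change 0.61). The 3 genes called are inhibitors of the pathway: Smad6 (135, 204, 434 and 75.0 CPM against 11.8, 19.3, 30.6 and 21.4 CPM; log2 fold change 2.62, SE 0.30, adjusted p = 1.31e-05), Smad7 (1.03, adjusted p = 0.0409) and the decoy receptor Bambi (0.92, adjusted p = 0.00925). Smad7 missed the threshold under 9 of 15 other settings, also without replicate 1, 2 or 4, and Bambi under 5 of 16, also without replicate 3 or 4. Of the target genes, 1 of 7 genes tested was called higher and 1 lower (median log2 fold change 0.46). Msx1, a homeobox gene, was higher (log2 fold change 1.96, SE 0.45, adjusted p = 0.00746) with 7.45, 19.4, 149 and 36.8 CPM in replicates 1 to 4, so that replicate 3 alone reached 100 CPM, and a UMI in 13 cells. Msx1 missed the threshold without replicate 3 or 4. Hey1 was lower (-1.01, adjusted p = 0.0101), but not called without replicate 4. Id1, Id2 and Id3, which encode inhibitors of DNA binding, were not called, with log2 fold changes of 0.20, 0.52 and 0.27 (adjusted p = 0.670, 0.118 and 0.493). Id1 reached 508, 97.4, 313 and 95.6 CPM in Bmp4+ cells and 789.9, 55.5, 173 and 104 CPM in the others, a spread between libraries wider than the difference.

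Among 21 regional transcription factors tested, 5 were higher and 7 lower (median log2 fold change -0.32). The label gene Gata2, chosen with results of these data known, is counted among the 5. Beside Lmo3 and Gata2, the higher ones were Gata3, required for ear development (496, 586, 845 and 561 CPM against 190.3, 203, 258 and 266 CPM; log2 fold change 1.39, SE 0.15, adjusted p = 5.95e-06), the homeobox gene Emx2 (1.98) and Zbtb20 (1.80). Sox2, the factor of the prosensory domain and its supporting cells, had 2 UMIs among the 136 cells, 1.65, 0, 0 and 0 CPM by library, and 84.6, 83.1, 89.9 and 122 CPM in the other non-hair cells. From summed UMIs this was a ratio of 56.5 with a 95% counting interval of 15.7 to 467. Sox21 (-2.14), Eya1 (-1.17), Irx5 (-1.44), Irx3 (-0.94) and Lmo4 (-0.96) were among the lower ones. Notch pathway genes had 6 of 12 lower (median log2 fold change -0.77), with Hes5 (-3.74), the glycosyltransferase Lfng (-2.66) and the ligand Jag1 (-2.12) at the head, and the receptor Notch1 higher (1.01, adjusted p = 0.00222).

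Matrix genes split. Of 38 tested, 9 were higher and 14 lower (median log2 fold change -0.39). The label gene Fbln2, chosen with results of these data known, is counted among the 9. Beside Fbln2, Npnt and Cthrc1, the higher ones included Col14a1, a fibril-associated collagen, at 117, 109, 81.8 and 80.0 CPM against 0.557 ± 0.318 CPM (log2 fold change 3.33, SE 0.32, adjusted p = 1.74e-06), and Itih5 (2.44), whose family binds hyaluronan. Dcn (-3.46), Spock1 (-3.46) and the tectorial membrane collagens Col2a1 (-1.51), Col11a1 (-1.73) and Col11a2 (-1.94) were lower. Of 11 tectorial membrane genes, 9 were lower (median log2 fold change -1.51), and Otogl, which encodes an otogelin-like protein, was higher (115, 101, 141 and 52.0 CPM against 34.3, 26.8, 23.1 and 14.0 CPM; log2 fold change 1.66, SE 0.27, adjusted p = 4.37e-04).

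Of 23 genes of ion and water transport tested at P1, 3 were higher and 4 lower (median log2 fold change 0.03). Of all genes tested, 4.59% were higher and 5.71% lower. The higher ones were Fxyd6, a regulator of the sodium pump (224, 561, 341 and 431 CPM against 60.0, 65.2, 27.1 and 64.9 CPM; log2 fold change 2.62, SE 0.23, adjusted p = 7.85e-07), the carbonic anhydrase Car13 (2.19) and the kinase Sgk1 (0.98). Slc12a2, the sodium, potassium and chloride cotransporter, was at 38.2, 16.5, 95.1 and 63.6 CPM against 251, 359, 379 and 434 CPM (log2 fold change -2.68, SE 0.26, adjusted p = 1.91e-06). The chloride channel Ano1 (-1.99), the pump subunit Atp1b1 (-1.73) and Car14 (-1.52) were also lower. The connexin genes Gjb2 and Gjb6, whose loss causes deafness, were lower, with Gjb6 at 5.65, 6.82, 0 and 63.5 CPM against 114, 86.7, 127 and 227 CPM (log2 fold change -2.74, SE 0.33, adjusted p = 1.92e-05) and Gjb2 at -1.19 (adjusted p = 4.83e-04). Sgk1 missed the threshold without replicate 2 or 4, and Car14 without replicate 4. Of 21 connexin, junction and keratin genes, 5 were higher and 5 lower (median log2 fold change 0.12), the higher ones being Cldn4, Cldn11, Cdh3, Krt18 and Krt8 (1.77, 1.29, 1.28, 1.08 and 0.67). Cldn11 and Cdh3 were not called without replicate 1 or 4, nor Cldn11 without replicate 2.

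FGF pathway genes split, with 3 of 11 higher and 3 lower (median log2 fold change 0.51). The receptor Fgfr2 was higher (31.9, 16.5, 86.3 and 157 CPM against 1.22 ± 1.05 CPM; log2 fold change 2.54, SE 0.41, adjusted p = 4.12e-04), as were the ETS factors Etv4 (2.18) and Etv5 (1.87), while Fgfr1 (-0.88), Fgfr3 (-1.63) and Fgf10 (-1.38) were lower. Without replicate 3 or 4, 1 of the 3 was still called lower, since Fgfr1 missed the threshold without replicate 3 or 4, Fgfr3 without replicate 4 and Fgf10 without replicate 1, 2 or 3. Of 21 Wnt pathway genes, 3 were higher, Frzb, a secreted Wnt antagonist (2.04), Fzd6 (1.27) and Fzd7 (1.17), and 3 lower (median log2 fold change -0.16). Fzd6 and Fzd7 were not called without replicate 1 or 4, and Fzd6 not without replicate 2, and Fzd7 had the opposite sign (-0.08) without cells of more than 3000 genes. Among other secreted peptides and receptors, 11 of 37 were higher, with Pdgfb (59.9, 56.0, 130.3 and 46.6 CPM against 1.18 ± 0.275 CPM; log2 fold change 2.80, SE 0.35, adjusted p = 3.02e-05), the netrin receptor Unc5b (2.69) and the ciliary neurotrophic factor receptor Cntfr (2.49) behind Igfbp4, and 8 lower, led by Npy (-3.57) and Igfbp3 (-3.45), with a median of 0.12 over the list. Ccnd1, which encodes cyclin D1, stood at 561, 545, 300.2 and 222 CPM against 22.8, 31.9, 26.9 and 32.3 CPM (log2 fold change 3.34, SE 0.26, adjusted p = 1.82e-07), and the cell cycle inhibitor Cdkn1c was lower (-1.82).

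Of 37 hearing loss genes tested, 3 were higher (Otogl and Gata3 among them) and 15 lower (median log2 fold change -0.52). Over all genes tested the shares were 4.59% higher and 5.71% lower, also for the lists that follow here. Retinoid and thyroid hormone genes gave 3 higher, the retinaldehyde dehydrogenase gene Aldh1a1 (1.54) among them, and 6 lower, Crym (-3.31) behind Crabp1, of 13 (median log2 fold change -0.40). Annexin, S100 and galectin genes gave 2 higher (Lgals1, 1.98, and Anxa6, 1.11) and 4 lower of 14 (median log2 fold change -0.34). Aldh1a1 missed the threshold without replicate 1, 2 or 4, where 1 gene of its list was called higher, and Anxa6 without replicate 4, while 2 of the annexin, S100 and galectin genes were called lower without replicate 2. Immediate early and stress genes, which respond to dissociation, gave 2 higher (4 without replicate 1) and 3 lower of 18, with a median log2 fold change of -0.04. Of 28 tested genes that the study lists for Bmp4-expressing cells of the lateral edge at E14, 22 were higher and 1, Clu, lower (-2.18; median log2 fold change 2.19). The study chose that list on the E14 libraries of the same series, so it is not independent evidence of the direction.

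Hensen's-type cells, which border Claudius cells in the duct, differed in 348 of 8592 genes tested, 167 of them higher (1.94%) and 181 lower (2.11%) in the Bmp4+ cells. The counts were 93 and 104 without the block, 139 and 231 after centring on the median gene, 92 and 117 without replicate 2, and 86 and 99 without replicate 3. They were 69 and 89 with a pseudocount of 1 CPM and 74 and 86 without cells of more than 3000 genes. With no filter on low values, where 17202 genes were tested, they were 39 and 52. Apoe led, at 9729, 4184, 2917 and 3688 CPM in the Bmp4+ and 72.0, 0, 26.0 and 177 CPM in the Hensen's-type cells of replicates 1 to 4 (log2 fold change 6.56, SE 0.41, adjusted p = 5.95e-09). Serpina3a (4.92), Npnt (3.91), Cthrc1 (3.48) and Rasgef1b (3.36) were higher again. H19, an imprinted noncoding RNA, was at 170.2, 384, 542 and 302 CPM against 22.1, 0, 13.2 and 61.6 CPM (log2 fold change 3.62, SE 0.44, adjusted p = 3.80e-05), although its level in the other non-hair cells was 275 ± 34.9 CPM and not called different from the Bmp4+ cells (0.23, adjusted p = 0.524).

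The genes lower than in Hensen's-type cells were led by Fabp7, a fatty acid-binding protein (58.4, 0, 0 and 7.03 CPM against 1525, 882, 1152 and 157 CPM; log2 fold change -5.28, SE 0.45, adjusted p = 3.97e-07). Egfl6 (-5.18), Olfml3 (-4.84), Syt6 (-4.14), Fam159b (-3.92) and Tecta (-3.75) followed. All 7 markers of Hensen's cells that were tested were lower, 6 of them without replicate 3 or 4, also Nupr1, at 67.1, 23.0, 18.5 and 149 CPM against 947, 865, 555 and 609.9 CPM. The classes were parted by Pmch, itself a gene of this list, and the list was chosen with earlier results of these data known. The count is therefore not independent evidence of the direction. Tulp2, from the same list, stood between the classes, at 104 ± 54.1 CPM in Bmp4+, 229 ± 88.7 in Hensen's-type and 10.4 ± 3.54 CPM in the other non-hair cells, lower than the second (-1.15, adjusted p = 0.0211) and higher than the third (2.33, adjusted p = 1.01e-04). The first of these calls was lost without replicate 3 or 4. Sox2 was at 57.0, 178, 47.8 and 77.4 CPM in Hensen's-type cells, a ratio from summed UMIs of 34.2 (95% counting interval 9.46 to 282). The 10 Hensen's-type cells of replicate 2 stood apart, with a sum of 7559 CPM for the Deiters' and pillar cell markers, above their Hensen's cell markers (6163 CPM), against 1047, 1739 and 1443 CPM in replicates 1, 3 and 4. The log2 fold change of Sox2 was -3.10 with and -2.73 without replicate 2 (adjusted p = 3.84e-04 and 0.00673). Against Hensen's-type cells, 22 of the 70 leading and list genes followed under other settings, Sox21, Hes5 and Lfng among them, no longer passed without replicate 2.

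Of 39 matrix genes tested, 11 were higher and 6 lower in Bmp4+ than in Hensen's-type cells (median log2 fold change -0.15, against 0.08 over all genes), with 3 lower without replicate 3. The label gene Fbln2 (3.78) is counted among the 11. Over all genes tested, 1.94% were higher and 2.11% lower. Cnmd, which encodes chondromodulin, stood at 1174, 1023, 841 and 1287 CPM against 368, 52.3, 31.5 and 174 CPM (log2 fold change 3.22, SE 0.32, adjusted p = 2.52e-06), and Col9a1, a type IX collagen, at 2113, 1736, 1316 and 2485 CPM against 427, 275, 206 and 517 CPM (log2 fold change 2.44, SE 0.15, adjusted p = 4.35e-09). Both were below the level of the other non-hair cells (-0.78 and -0.38), Cnmd in 3 of 4 libraries, and for Col9a1 the call was lost without replicate 3 and the sign turned with means of the deposited log values (0.19). Col14a1 (3.16), Epyc (2.40) and Lgals1 (2.96) were higher, as were Fxyd6 (3.20), Ccnd1 (2.58), Bmp7 (1.70), Smad6 (2.12) and Bmper (1.85). Without replicate 2, whose Hensen's-type cells stood apart, Epyc, Smad6 and Bmper missed the threshold, Epyc and Smad6 also without replicate 3. P2rx2, an ATP-gated channel, was lower (-2.90). Of the immediate early and stress genes, 7 of 18 were higher in Bmp4+ cells, Fosb (2.05), Klf2 (1.73) and Fos (1.65) among them, and none lower (median log2 fold change 0.51). Without replicate 2 there were 2 (Jund and Klf2), without replicate 3 also 2 (Jun and Jund) and without replicate 4 there were 5. Their part in the other differences was not tested.

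The 153 roof-type cells, chosen on Oc90, differed in 530 of 8798 genes, with 249 higher (2.83%) and 281 lower (3.19%) in Bmp4+ cells. Without the block there were 142 and 217, with means of the deposited log values 445 and 254, and without replicate 2 122 and 165. Without cells of more than 3000 genes there were 62 and 96, and with no filter on low values 83 and 116. Itih5 (595, 582, 416 and 389.6 CPM against 32.8, 0, 0 and 17.9 CPM; log2 fold change 4.74, SE 0.40, adjusted p = 3.54e-07), Serpina3a (5.03), Igfbp4 (4.92), Lmo3 (4.53), Rtn1, a reticulon of the endoplasmic reticulum (4.51), and Hs3st1, a heparan sulfate sulfotransferase (4.33), led the higher genes. Gata3 was at 59.8, 24.1, 62.5 and 78.2 CPM in roof-type cells (3.31). No UMI of Ttr (transthyretin), Dapl1, Lypd2 or Postn (periostin) was counted in the 136 cells. With 3 UMIs over all Bmp4+ cells as the floor (2.79 CPM) they were at least 416-fold, 223-fold, 149-fold and 167-fold lower than in roof-type cells. Vmo1 had 1 UMI, against 9836, 7632, 5164 and 5449 CPM in roof-type cells. Cndp2, a dipeptidase, was at 46.6, 30.1, 16.1 and 67.6 CPM against 2845, 1807, 2144 and 1924 CPM (log2 fold change -5.54, SE 0.27, adjusted p = 3.75e-10). Keratin and claudin genes Krt18 (-1.08), Krt8 (-0.97) and Cldn4 (-1.27), higher in Bmp4+ cells than in the other non-hair cells, were lower than in roof-type cells, Krt8 not without replicate 2. Apoa4 (2.37) and Mest (2.40) remained higher, whereas Enpp1 and Cthrc1 were not called (0.97 and 0.87, adjusted p = 0.105 and 0.133). The call of Apoa4 was lost without cells of more than 3000 genes.

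The Bmp4+ cells varied among themselves in Fst and Fbln2. Fst was at 1.5 or more on the deposited scale in 26 of 82, 12 of 12, 5 of 9 and 17 of 33 cells of replicates 1 to 4. Fbln2 was at 1.5 or more in 67, 9, 5 and 26 cells. Both genes passed this value in 42 cells, Fst alone in 18, Fbln2 alone in 65 and neither in 11. Fbln2 reached 1.5 in 42 of the 60 cells with Fst of at least 1.5 and in 65 of the 76 cells with Fst below 1.5. Over a Fst value of 3, which is not the value of the split, Fbln2 was below 1.5 in 12 of 16 cells. Bmp4 lay below 2.0 in 6 of those 12 cells and in 29 of all 136. Fbln2 had a UMI in 3 of the 12 Bmp4+ cells with 1 or 2 UMIs of Bmp4 and in 118 of the 124 with 3 or more.

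**Figure D3:**
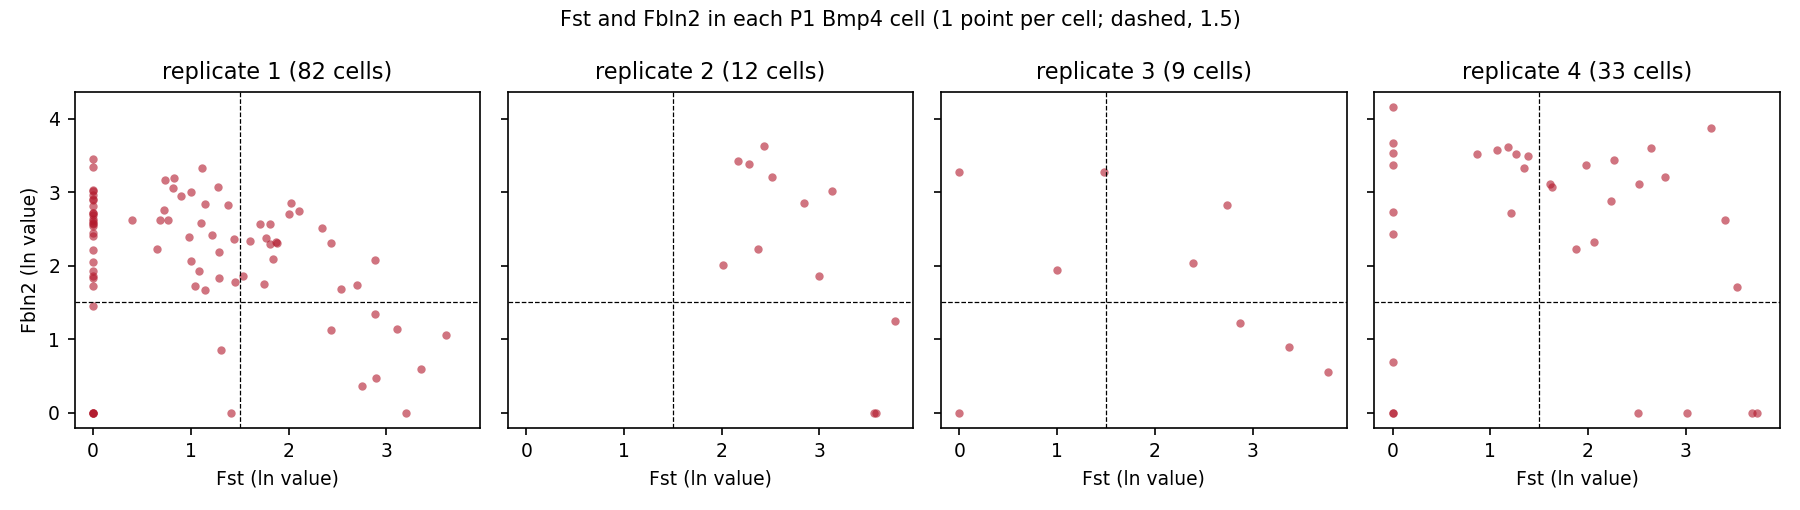
Fst against Fbln2 in each of the 136 Bmp4+ cells (deposited natural log values), 1 panel per library, with dashed lines at 1.5. Of the 60 cells with Fst of at least 1.5, 42 reach 1.5 for Fbln2, as do 65 of the 76 cells with Fst below 1.5. Of the 16 cells with Fst above 3, 12 lie below 1.5 for Fbln2.

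Replicates 1 and 4 had 5 or more cells on both sides of the Fst value and gave a comparison of 43 Fst-high with 72 Fst-low Bmp4+ cells. Of 8496 genes, 7 were higher (0.0824%) and 17 lower (0.2%), and 0 and 0 without the block or with Bmp4 of at least 2.0 (limma, with 89 and 390 genes at an unadjusted p under 0.05). With 2 libraries limma took its variance wholly from the fit across all genes, so the calls are given without p. Hmga2, a chromatin protein of growing tissue, was at 193 and 214 CPM in Fst-high and 68.3 and 45.3 CPM in Fst-low cells of replicates 1 and 4 (log2 fold change 1.70). Igfbp5 (1.10), Fos (1.08), Cdo1 (0.95), Cldn4 (0.84), Twistnb (2.56) and Krt18 (0.57) were the others higher. Pcolce2, which encodes a procollagen proteinase enhancer, was at 0 and 0 CPM against 45.7 and 213 CPM (log2 fold change -3.48). Gsn (-3.40), Crabp1 (-3.03), Calb1 (-3.02), Efhd1 (-2.66) and Sparcl1 (-2.44) were lower as well. Of the 9 Kölliker's organ genes, 7 were tested and 4 were lower in Fst-high cells (Pcolce2, Crabp1, Calb1 and Tecta). The sum of the whole list was 715 against 1498 CPM in replicate 1 and 2030.3 against 1594 CPM in replicate 4. Markers of the cochlear roof were lower in both libraries, with a sum over 5 genes of 27.1 against 173 CPM in replicate 1 and 73.6 against 355 CPM in replicate 4, and Sparcl1, the only gene of that list tested, was called lower. The part of either list in the split was not tested. Fbln2 was 689 and 1641 CPM in Fst-high and 1169 and 2478 CPM in Fst-low cells.

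The same rule was applied to the tables of the other ages, which were normalized separately, so levels are set side by side and tests were run within an age. It found 302 and 214 cells at E14 (13.7% and 7.00% of a library), 51, 83 and 283 at E16 (4.09%, 2.95% and 7.25%), 82, 12, 9 and 33 at P1 (2.19%, 0.551%, 0.357% and 0.589%) and 6 and 11 at P7 (0.338% and 0.687%). Libraries of one age differed at P1 from 0.357% to 2.19%. The part of dissection and dissociation in these shares was not tested.

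**Figure D4:**
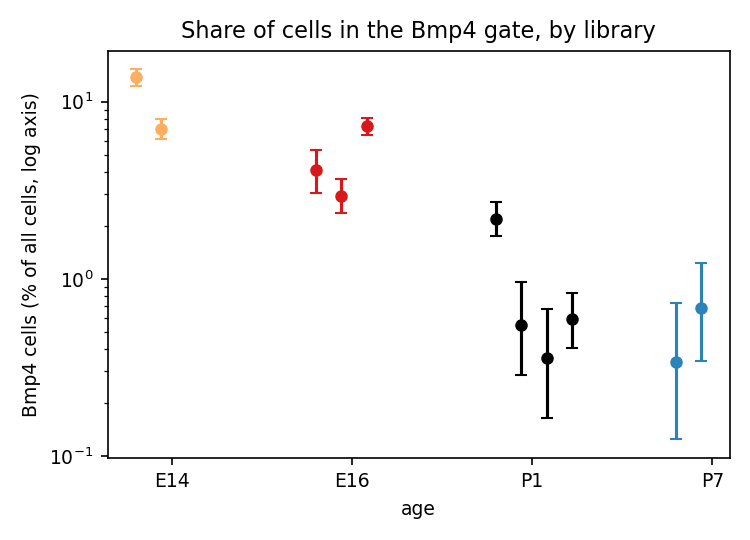
Share of all cells of a library that passed the Bmp4 rule (percent, log axis), 1 point per library with its 95% exact interval for counting error. The E14 and E16 libraries lie between 2.95% and 13.7%, the P1 and P7 libraries between 0.338% and 2.19%.

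Of the 12 leading genes of the P1 cells, 10 were higher in the Bmp4+ than in the other non-hair cells of all 7 libraries of the other ages, and several stood at greater levels at the later ages. Apoa4 was at 0 in Bmp4+ cells of E16 replicate 1 and Tnnt2 in those of P7 replicate 4, and both were higher in the other 6 libraries. In the Bmp4+ cells 968 of 8904 genes tested were higher at E14 (10.9%), 232 of 8887 at E16 (2.61%; 442 without replicate 1) and 111 of 8173 at P7 (1.36%), where the median log2 fold change over all genes was -0.17. Without replicate 1, E16 kept 2 libraries, and limma took the variance of that fit wholly from other genes. Of the 396 genes higher at P1, 230, 157 and 58 were called higher at E14, E16 and P7, which is 58.1%, 39.6% and 14.6% of the P1 list and 23.8%, 67.7% and 52.3% of the other list. In the opposite direction 9, 2 and 8 were called at those ages. Of the 492 lower at P1, 273, 184 and 78 were lower at those ages (55.5%, 37.4% and 15.9% of the P1 list), where 12.6%, 3.07% and 2.34% of all genes tested were called lower, and 32, 1 and 12 were called higher. At E14 and P7 the 2 libraries leave limma to take its variance wholly from other genes, and the P7 profiles rest on 6 and 11 cells, so no p is given for them, and without the block E14 gave 365 higher and 453 lower, E16 gave 112 and 114, and P7 gave 0 calls higher and 0 lower (limma, with 1400 genes at an unadjusted p under 0.05).

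Markers of other cell types moved with these comparisons. Hensen's cell markers outside the rule summed higher in Bmp4+ than in other non-hair cells at E14, E16 and P7. At E14 the sums were 122 to 155 against 73.8 to 99.3 CPM, and at E16 333 to 527 against 181 to 257 CPM. At P7 they were 1155 to 1324 against 849 to 1021 CPM. Interdental markers at P7 summed to 919 to 1120 against 384 to 484 CPM. Stria and lateral wall markers there summed to 73.8 to 109 against 27.6 to 32.4 CPM. At E14 all 8 markers of cycling cells were lower in the Bmp4+ cells (median log2 fold change -1.77), summing to 126 CPM in both libraries against 567 to 688 CPM in the other non-hair cells, and at E16 2 of 6 tested were lower (44.1 to 82.9 against 109.7 to 266 CPM). At P7 3 of 4 mesenchyme markers tested were lower (median log2 fold change -4.35, with sums of 0 to 7.74 against 454 to 1196 CPM). Of 6 glial markers at P7, 5 were lower (median log2 fold change -2.39), although their sum was 0 against 1117 CPM in replicate 4 and 3239.8 against 3119.9 CPM in replicate 5. Immediate early and stress genes gave 8 higher and 3 lower of 19 at E14 and 0 higher and 10 lower of 19 at P7. Over all genes tested, 10.9% were higher and 12.6% lower at E14, 2.61% and 3.07% at E16 and 1.36% and 2.34% at P7. At P1, 2 glial markers were tested and none called, and no cycling or mesenchyme marker passed the filter. Sums of Kölliker's organ, HC and roof markers were lower in Bmp4+ cells in every library of E14, E16 and P7. Interdental sums were lower at E14 and E16. The part of these differences in the calls at each age was not tested.

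Serpina3a averaged 23.6 ± 5.40 CPM in the Bmp4+ cells at E14 (SD, n = 2 libraries), 86.4 ± 14.9 at E16 (n = 3), 532 ± 205 at P1 (n = 4) and 7498 ± 3104 at P7 (n = 2). In the other non-hair cells it averaged 0.437 ± 0.486, 0.945 ± 0.172, 1.46 ± 1.16 and 866 ± 233 CPM, so at P7 the gene was no longer near 0 outside the Bmp4+ cells. Apoe averaged 111 ± 0.687, 412 ± 138, 5129 ± 3110.4 and 13015 ± 6153 CPM. Npnt stood at 97.2 ± 17.0, 218 ± 13.5, 847 ± 277 and 1905 ± 81.3 CPM, and Igfbp4 at 160.5 ± 18.6, 193 ± 26.9, 541 ± 133 and 3834 ± 193 CPM. For all 4 genes the difference from the other non-hair cells was above 0 in each of the 11 libraries.

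Lmo3, Ccnd1 and Gata2 were already high in the Bmp4+ cells at E14. Lmo3 averaged 157 ± 4.67, 144 ± 23.2, 332 ± 147 and 400.1 ± 207 CPM at E14, E16, P1 and P7, and at most 9.97 CPM on average in the other non-hair cells of any age. Ccnd1 averaged 489 ± 54.4, 397 ± 78.8, 407 ± 172 and 309 ± 64.0 CPM in Bmp4+ cells, while the other non-hair cells held 300.0 ± 19.0, 109 ± 22.3, 28.5 ± 4.50 and 13.6 ± 5.62 CPM. Gata2 averaged 1099.9 ± 163, 706 ± 116, 577 ± 168 and 491 ± 170.2 CPM, and 307 ± 67.1 CPM in the other non-hair cells at P7. Of the BMP target genes, 7 of 8 tested at E14 and 3 of 7 at E16 were called higher in Bmp4+ cells, 1 of 7 at P1 and 0 of 7 at P7, and 1, 0, 1 and 1 lower. Of all genes tested, 10.9%, 2.61%, 4.59% and 1.36% were called higher at these ages, so the number of calls differed with age for all genes too, and whether the counts of target genes differ between ages was not tested. Bmp7 was higher at each age and averaged 107 ± 7.90, 161 ± 33.0, 225 ± 70.8 and 393 ± 16.1 CPM. Among the lower genes, all 9 markers of Kölliker's organ were lower at E14, E16 and P1, and 5 of 7 tested at P7. Over all genes tested, 12.6%, 3.07%, 5.71% and 2.34% were called lower at E14, E16, P1 and P7.

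**Figure D5:**
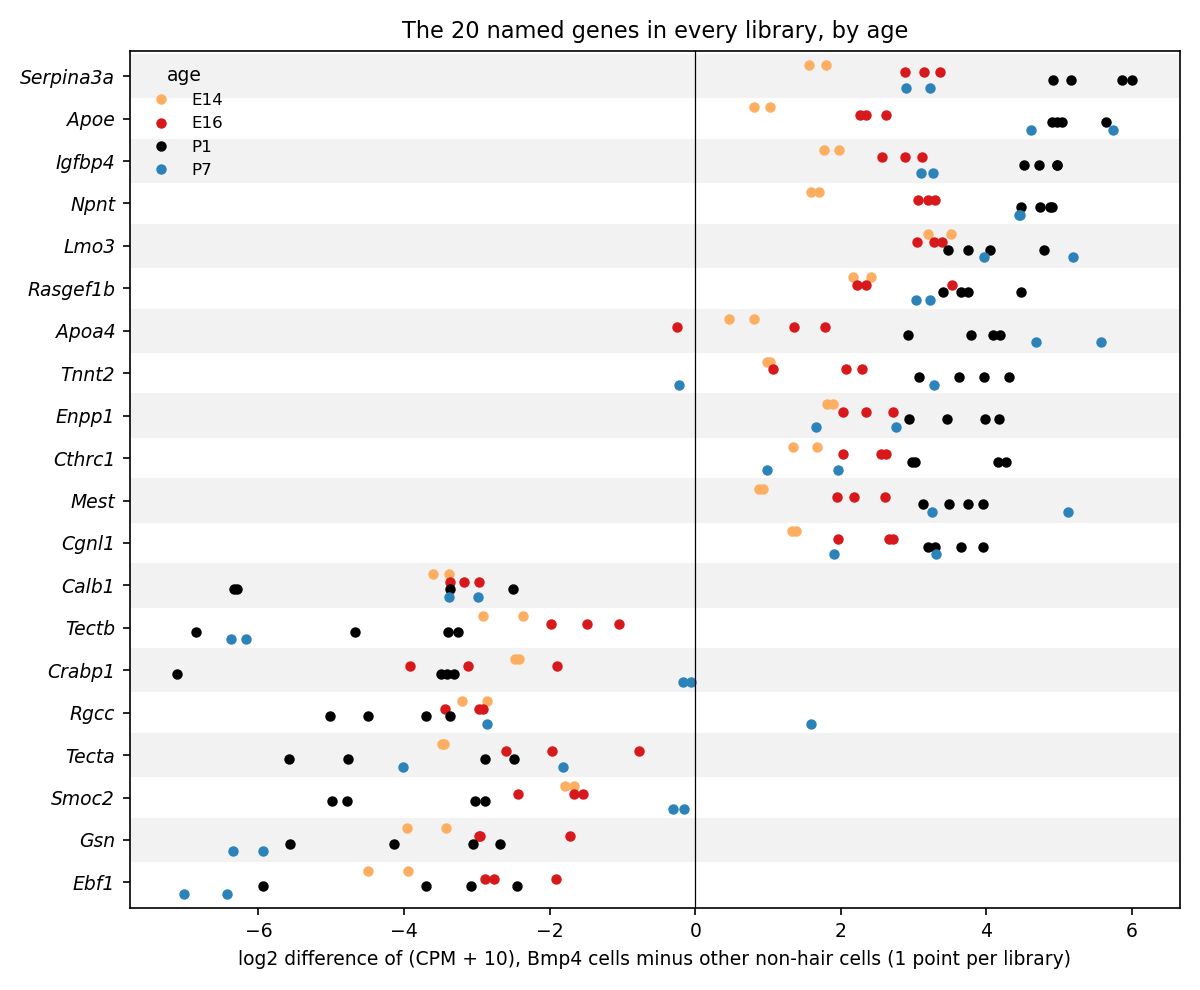
Log2 difference of CPM + 10 between Bmp4+ cells and the other non-hair cells for the 20 named genes, with 1 point per library and colours for age. The 12 upper genes lie right of 0 in every P1 library and the 8 lower genes left of 0, while Apoa4 lies left of 0 in 1 E16 library and Tnnt2 and Rgcc lie on both sides of 0 at P7.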

How the data were processed

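Single-cell RNA was measured in 11 libraries of wild-type CD1 cochlear epithelium. Per the labels, the authors used Cell Ranger 2.1.1, mm10 and Seurat 2.0, and the study's methods give filters on genes and UMIs per cell. The deposited values are natural log values, ln(1 + UMIs per 10000 of a cell). The log base was read from the values, which gave back whole UMIs for 100% of values within 2%. No cell types were given with the values, so cells were taken by limits on 5 genes, and the members and gene lists were chosen with earlier results of these data known.

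CPM of cells were averaged per class and library. Low genes (mean below 10 CPM) were dropped, and the rest were tested with limma 3.58.1 (R 4.3.3) on log2(CPM + 10), with a mean trend, the library as a block and Benjamini-Hochberg adjustment over all genes tested (threshold 0.05). Fold changes on this scale understate the change of low genes. The 5 genes of the rule were left out, and so was Fst in the split on Fst. Comparisons used libraries with at least 5 cells of each class. P-values rest on the spread between libraries, each a pool of pups. For each gene limma drew this spread toward a fit across all genes. That fit weighed 13.2, 15.3 and 14.5 degrees of freedom for the other non-hair, Hensen's-type and roof-type comparisons, against 3 from the gene itself. A p is therefore not a measure of that gene's own spread alone. Both classes of a library come from 1 suspension, which is where the pairing comes from, and their deviations from the class means correlated across genes (r = 0.63, 0.29, 0.25 and 0.57 in replicates 1 to 4 for the other non-hair cells, 0.40, 0.11, 0.10 and 0.42 for Hensen's-type and 0.33, 0.11, 0.07 and 0.36 for roof-type cells).

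Hensen's-type cells had Pmch of at least 1.5 and roof-type cells Oc90 of at least 3.5, with the HC limits as above. Doublets were called with Scrublet (scanpy 1.11.5) at a rate of 0.06 and kept, and leaving them out was an alternative. The P1 libraries held 2179 to 5598 cells and 11829392 to 23523802 UMIs. Named genes of at least 50 CPM in the higher class, with the same sign in every library, were ranked by log2 fold change (12 higher and 8 lower for the other non-hair cells, 6 and 6 elsewhere, without Gm, Rik, mitochondrial and ribosomal protein genes), with up to 4 called genes of each list and the label genes. Further genes of a list were named after their values were seen. Code was tested on simulated data. Alternatives changed the block, pseudocount, filter, averaging, limits, doublets and replicates. A few genes of the lists are counted but not reported by name here.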

Additional observations from a re-analysis of the deposited data

Results flagged for a closer look

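In groups of 4 libraries, 57 sets of values were checked for a library that lies far from the others, and chance flags about 1 in 20. Replicate 1 held a greater share of Bmp4+ cells, 2.19%, than the other P1 libraries (0.357% to 0.589%). In the other non-hair cells Lmo3 was at 17.2 CPM in replicate 1 and at 7.48 to 7.75 CPM in the other libraries, far below the Bmp4+ cells in each. Myo6, one of the genes of the rule, was at 30.03 CPM in the other non-hair cells of replicate 2 and at 24.5 to 25.3 CPM in the others.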

How the results depend on the processing

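Under the alternatives 9 values of the genes named took the opposite sign, and none of these passed the test. Against the other non-hair cells these were Id1 with Bmp4 of at least 2.0 (-0.42), in replicates 1 and 4 alone (-0.37) and without replicate 3 (-0.0064, with 0.48 the highest on leaving out a replicate), Id3 in replicates 1 and 4 alone (-0.13) and without replicate 2 (-0.11, the highest being 0.48), H19 in replicates 1 and 4 alone (-0.17), Col9a1 with means of the deposited log values (0.19) and Fzd7 without cells of more than 3000 genes (-0.076). Against Hensen's-type cells it was Gata2 with means of the deposited log values (0.11). Of the genes followed under these settings, 119 were called against the other non-hair cells, 69 against Hensen's-type cells, 78 against roof-type cells and 20 in the Fst split. The call was lost under at least 1 alternative for 47, 46, 40 and 20 of them, and on leaving out 1 library for 20, 28 and 19 in the first 3 comparisons. Those lost most often were Aldh1a1, Fgfr1, Nog and Smad7 against the other non-hair cells, Sox21 against Hensen's-type cells, Cdkn1c against roof-type cells, and Cldn4, Efhd1 and Fos in the Fst split. Counts moved more, and are given as genes higher and lower. Without the replicate block, which pairs the classes of a library, they were 181 and 264 for the other non-hair cells, 93 and 104 for Hensen's-type cells, 142 higher for roof-type cells, 0 and 0 for the Fst split, 365 and 453 at E14, 112 and 114 at E16 and 0 and 0 at P7. With a pseudocount of 1 CPM they were 293 lower (other non-hair), 69 and 89 (Hensen's-type), 151 and 180 (roof-type), 4 higher (Fst), 166 lower (E16) and 21 and 17 (P7). With no filter on low values, where more genes were tested, they were 217 and 1036, 39 and 52, 83 and 116, 4 higher (Fst), 1765 lower (E14), 79 and 69 (E16) and 225 and 5310 (P7). With a filter at 50 CPM they were 255 and 261 (other non-hair), 585 and 651 (E14) and 175 lower (E16). With means of the deposited log values they were 665 and 357 (other non-hair), 445 and 254 (roof-type) and 0 and 1 (Fst). Without cells of more than 3000 genes they were 160 and 311, 74 and 86, 62 and 96, and 2 and 8 (Fst). The Fst split gave 0 and 9 with cells of at least 3000 UMIs and 0 and 0 with Bmp4 of at least 2.0. Leaving out 1 replicate gave 249 to 346 higher and 357 to 411 lower (other non-hair), 86 to 133 and 99 to 155 (Hensen's-type), 122 to 267 and 165 to 329 (roof-type), and 175 to 442 and 197 to 484 (E16, highest without replicate 1). The E16 fit without replicate 1 kept 2 libraries, and limma took its variance wholly from other genes. Comparisons that began with 2 libraries could not be run with 1 left out. Replicates 1 and 4 alone, an alternative chosen after seeing the data like the centring on the median gene, gave 446 lower than roof-type cells. That fit took its variance wholly from other genes too. Without drawing cells down to 1500 UMIs, the shares of Bmp4+ cells with a UMI were 70.6% (Fst), 89.0% (Fbln2) and 90.4% (Gata2). Where the counts of tested genes or samples did not change, the cause was not tested. With 9 and 12 cells in replicates 3 and 2, low genes rest on few UMIs there.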
